A study of Arabidopsis thaliana with 4 samples.

Results

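The 10 core genes of the Arabidopsis circadian clock were followed in shoot apices of clv3 plants and of mp clv3 plants, which carry mutations in both genes. They were taken by gene identifier, with earlier results of these data known, and all 10 were present among the 27322 genes of the table. They are CCA1 (AT2G46830), LHY (AT1G01060), RVE8 (AT3G09600), PRR9 (AT2G46790), PRR7 (AT5G02810), PRR5 (AT5G24470), TOC1 (AT5G61380), GI (AT1G22770), ELF4 (AT2G40080) and LUX (AT3G46640, PCL1 in the reference). The apices came from inflorescences of plants 6 weeks old, kept at 22 °C under days of 16 h light and nights of 8 h, and older flowers had been removed. The labels list 2 libraries for clv3 and 2 for mp clv3, so CLV3 is mutant in both groups and the comparison is about MP (MONOPTEROS, an auxin response factor). The growth description gives the double mutant as mp319 clv3-7 and mentions Col-0, whereas the genotype labels read clv3, so the name clv3 is used as labelled. Each genotype is given as 1 column of reads and 1 of RPKM (reads corrected for the length of the gene and the depth of the column), and the spread between plants is therefore unknown.

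The plant clock is a loop of transcription factors that mostly repress each other in turn over the day. CCA1 and LHY, a pair of MYB-type repressors, peak around dawn, the PRR proteins follow from morning to evening in the order PRR9, PRR7, PRR5 and TOC1, and the evening complex, which holds ELF4 and LUX, acts around dusk and at night. RVE8 is a MYB-type activator of evening genes. The transcripts cycle, so a level taken at one harvest depends on the time of day. The labels used here give no time of harvest, and a difference between genotypes and a difference in harvest time or clock phase cannot be told apart.

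All 10 clock genes were higher in mp clv3 than in clv3, by 1.35-fold for TOC1 to 50.3-fold for PRR9. In the authors' deposited table each of the 10 had a false discovery rate (FDR) under 0.05 and none was lower. Over all genes of that table, 26.4% were called higher and 46.3% lower at that threshold, so being called is common and being called higher is less so. Each of the 10 had at least 100 reads in the higher genotype. Of the 19424 genes with that many, 6617 were called higher and 10455 lower, which are larger shares than over all genes. The shares of all genes set beside other lists below also include genes with fewer reads. PRR9, CCA1, RVE8, PRR5 and LHY, or 5 of the 10, were also at least 2-fold higher in the authors' deposited table, against 9.33% of all genes, or 10.3% of genes with at least 100 reads in the higher genotype. With a pseudocount of 1 RPKM, which shrinks the ratios of scarce genes, 4 of the 10 passed 2-fold, and LHY did not (log2 ratio 0.75). None of the 10 was 2-fold lower, against 18.5% of all genes and 2962 of the 19424 with at least 100 reads in the higher genotype. The median log2 ratio of mp clv3 over clv3 was 1.16 for the 10 genes and -0.20 for all genes. The median falls in a gap, since 5 genes lay between 1.35-fold and 1.61-fold and the other 5 between 3.11-fold and 50.3-fold. The sources used here name no test behind the FDR, and no difference has a replicate check.

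Measured per length, the order of the clock genes was nearly the same in both genotypes, with evening genes on top. In clv3 the RPKM values ran from TOC1 through ELF4, PRR5, LUX, PRR7, GI, RVE8, CCA1 and LHY down to PRR9. Neighbours in that order had separate 95% counting intervals (exact, on read pairs, and covering no spread between plants) except RVE8 and CCA1, and CCA1 and LHY. In mp clv3 PRR5 stood above ELF4, and PRR9 stood above LHY, with CCA1 and PRR9 indistinguishable by counting error. The 4 genes at the bottom in clv3 held 14 to 151 reads each, against 3395 to 27495 for the other 6. Summed over the 10 genes, the level in mp clv3 was 437 RPKM against 238 RPKM in clv3.

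**Figure D1:**
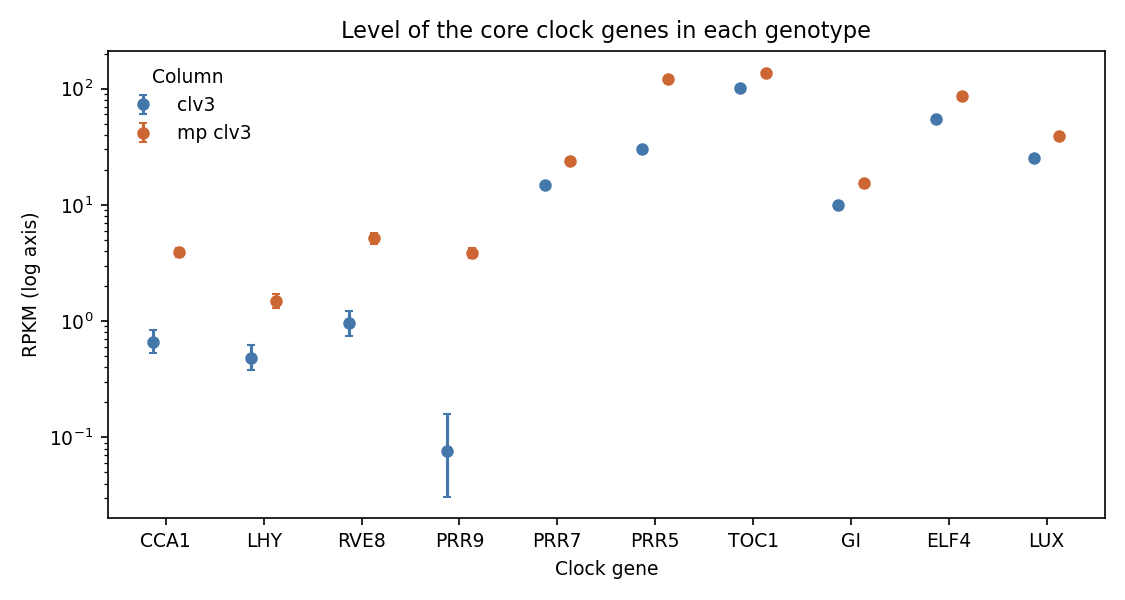
RPKM of each clock gene on a log axis, with 1 point per genotype and bars for the 95% counting interval (exact Poisson on read pairs), which are smaller than the points for most genes. Every mp clv3 point lies above its clv3 point, and the distance is largest for PRR9 (0.0768 and 3.86 RPKM).

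The columns hold 100328819 reads for clv3 and 103347441 for mp clv3. MP fell from 25336 to 5063 reads, while CLV3, mutant in both groups, had 110 and 1278 reads. The apex markers STM (98.8 and 217 RPKM) and CLV1 (20.7 and 41.3 RPKM) were present in both. In the authors' deposited table all 12 tapetum and pollen markers were lower in mp clv3, against 46.3% of all genes. Their summed level went from 775 to 13.9 RPKM, and MS2, DYT1, A7 and ATA1 had 0 reads in mp clv3. Of 8 green tissue markers 7 were lower and LHCB2.1 was higher, where 46.3% and 26.4% of all genes were so called. The summed RPKM of these 8 went from 5563 to 2619. The 6 meristem markers went 3 up and 3 down, against 26.4% and 46.3% of all genes. STM, CLV1 and WUS (5.69 and 21.8 RPKM) were higher. KNAT1 (42.5 and 11.3 RPKM), KNAT2 (15.2 and 12.4 RPKM) and KNAT6 (33.6 and 24.8 RPKM) were lower. The sums were 216.5 and 329 RPKM, with STM the largest part of both. Whether tissue makeup differed, and what part it had in the clock gene differences, was not tested. In such bulk samples fewer cells of a type and less RNA per cell cannot be told apart.

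The DNA before the start of the clock genes is shown because some of these genes encode factors known to bind the promoters of others. For each gene the 300 bases before its annotated start were read from the RefSeq genome and annotation of TAIR10.1, since the deposited table carries no coordinates, and the build named by the submitters' processing notes is TAIR10. Both strands were searched for 7 motifs, and the matches did not overlap each other. The evening element AAAATATCT, through which CCA1, LHY and RVE8 are known to bind, was found in 3 of 10 clock genes and in 2.79% of the 27443 windows of that length before protein-coding genes. The G-box CACGTG, a site of bHLH and bZIP factors, was found in 5 of 10 and in 7.09% of all promoters. The CCA1-binding site AAAAATCT was found before PRR5 (7.94% of all promoters). The LUX-binding site was found as GATTCG before PRR9 (9.34%) and as GATACG before ELF4 (5.51%). Of the auxin response elements bound by factors such as MP, TGTCTC was found before RVE8 (13%) and TGTCGG before none of the 10 (4.91%). A match describes these letters in this window and does not show that a factor binds there.

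**Figure D2:**
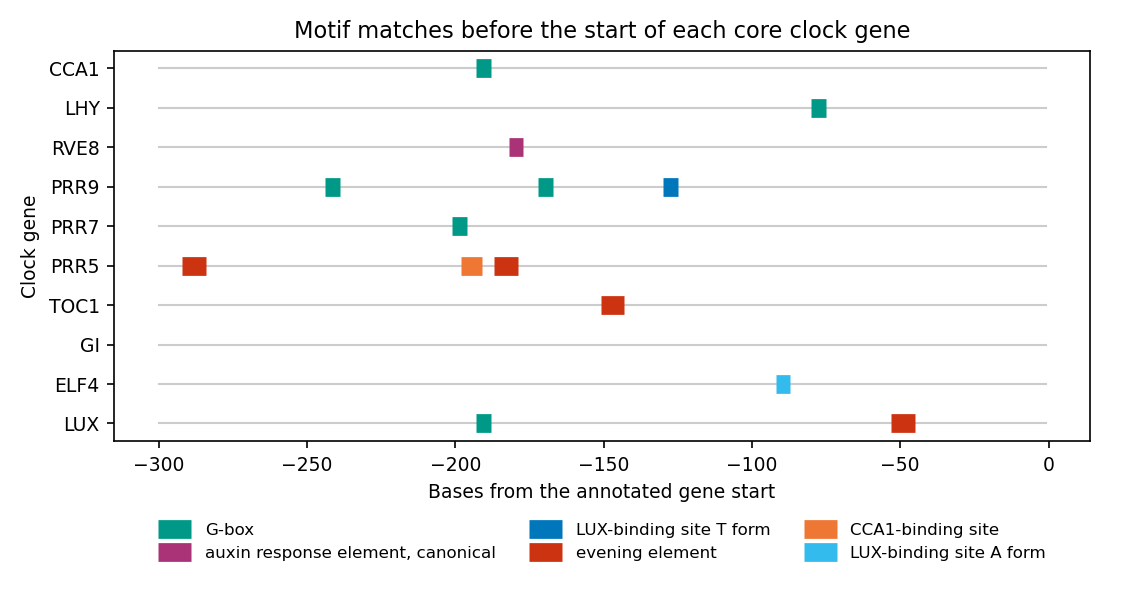
Motif matches on either strand in the 300 bases before the annotated start of each clock gene, with distance from the start in bases on the x axis and 1 row per gene. Evening elements mark PRR5, TOC1 and LUX, G-boxes mark CCA1, LHY, PRR9, PRR7 and LUX, and GI shows no match in this window.

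The dawn MYB genes were scarce in both genotypes and several-fold higher in mp clv3. In clv3, 151 reads (0.664 RPKM) fell on CCA1, which represses evening genes, and in mp clv3 916 reads (3.91 RPKM) did. That makes a 5.89-fold higher level, and the 95% counting interval runs from 4.58 to 7.56. For LHY, its close partner, the reads were 131 (0.483 RPKM) and 419 (1.5 RPKM), which is 3.11-fold higher (interval 2.33 to 4.14). The intervals of these folds do not overlap, so by counting error CCA1 differed more than LHY. Their RPKM placed CCA1 at percentile 19.9 and LHY at percentile 18.0 of the genes with reads in clv3, and at 32.0 and 23.4 in mp clv3. Both promoters hold 1 G-box, which lies at positions -193 to -188 from the start of CCA1 (in capitals) and at -80 to -75 from that of LHY.
CCA1 promoter, chr2:19245291-19245590, forward strand: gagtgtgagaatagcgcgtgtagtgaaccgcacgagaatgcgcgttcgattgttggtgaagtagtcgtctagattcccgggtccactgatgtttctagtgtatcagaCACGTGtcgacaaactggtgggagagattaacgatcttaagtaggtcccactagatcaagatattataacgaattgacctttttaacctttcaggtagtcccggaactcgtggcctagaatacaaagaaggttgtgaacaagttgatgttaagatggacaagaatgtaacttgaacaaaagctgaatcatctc

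RVE8, an activator of evening genes related to CCA1 and LHY, drew 135 reads (0.960 RPKM) in the clv3 column and 746 (5.15 RPKM) in the other. It was 5.36-fold higher, and its interval (4.10 to 7.00) overlaps that of CCA1. The activator and the repressors of this MYB family were thus higher side by side, and RVE8 had the highest RPKM of the 3 in each genotype, in clv3 within the counting error of CCA1.

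The 4 PRR genes, which encode repressors of CCA1 and LHY, covered the whole range of differences. PRR9, the earliest of the series in the day, was the scarcest of the 10 in clv3, where 14 reads (0.0768 RPKM) were counted, against 726 reads (3.86 RPKM) in mp clv3. With so few reads in clv3 the ratio of 50.3 has a wide counting interval, from 24.2 to 126, and it remains the furthest apart of the 10 at either end. Its log2 ratio of 5.65 became 4.49 with a pseudocount of 0.1 RPKM and 2.18 with one of 1 RPKM. PRR9 stood at percentile 99.1 of the log2 ratios of genes with at least 100 reads in the higher genotype. PRR7, next in the day, went from 4187 reads (14.7 RPKM) to 6943 (23.7 RPKM), which is 1.61-fold higher (interval 1.52 to 1.7). PRR9 and PRR7, which act together in the morning, therefore differed in size by far more than counting error.

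PRR5, which acts from afternoon to evening, stood at 6787 reads (30.0 RPKM) for clv3 and 28283 (121 RPKM) for mp clv3. It was 4.05-fold higher (interval 3.90 to 4.2) and alone passed 2-fold among the 6 clock genes with the most reads. TOC1, the evening member, went from 27495 reads (101 RPKM) to 38353 (137 RPKM), which is 1.35-fold higher (interval 1.32 to 1.38). TOC1 was the most abundant of the 10 in both genotypes and differed the least. PRR5 and TOC1 share the evening element but not the size of the difference.

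The promoters of these PRR genes are printed to show how their motifs differ, with every match in capitals. PRR9 has 2 G-boxes and, on the other strand, 1 LUX-binding site. PRR5 has 2 evening elements and a CCA1-binding site between them, all on the other strand. In the letters printed here they therefore read as AGATATTTT and AGATTTTT. TOC1 has 1 evening element, also on the other strand.
PRR9 promoter, chr2:19232307-19232606, forward strand: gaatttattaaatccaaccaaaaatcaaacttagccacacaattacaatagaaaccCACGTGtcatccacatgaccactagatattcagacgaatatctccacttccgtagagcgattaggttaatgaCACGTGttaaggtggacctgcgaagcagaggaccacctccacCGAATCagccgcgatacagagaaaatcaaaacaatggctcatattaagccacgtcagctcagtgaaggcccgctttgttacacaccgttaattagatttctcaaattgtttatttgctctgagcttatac
PRR5 promoter, chr5:8358547-8358846, reverse strand: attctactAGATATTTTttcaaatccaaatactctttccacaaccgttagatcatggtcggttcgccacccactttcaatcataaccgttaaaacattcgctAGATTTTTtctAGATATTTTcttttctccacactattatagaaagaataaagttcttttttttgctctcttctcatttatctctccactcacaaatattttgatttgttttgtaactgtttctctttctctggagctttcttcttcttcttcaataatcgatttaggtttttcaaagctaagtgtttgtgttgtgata
TOC1 promoter, chr5:24674663-24674962, forward strand: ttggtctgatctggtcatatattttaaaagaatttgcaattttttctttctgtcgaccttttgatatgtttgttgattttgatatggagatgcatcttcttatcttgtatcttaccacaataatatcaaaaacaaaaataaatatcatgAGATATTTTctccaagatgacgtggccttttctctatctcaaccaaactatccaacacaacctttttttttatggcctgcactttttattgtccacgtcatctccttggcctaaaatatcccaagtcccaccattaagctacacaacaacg

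GI, a large protein that stabilises the TOC1-degrading factor ZTL and promotes flowering in long days, rose from 4134 reads (9.96 RPKM) in clv3 to 6551 (15.3 RPKM) in mp clv3. The fold was 1.54 (interval 1.46 to 1.63). None of the 7 motifs was found in its 300 bases.

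The evening complex genes differed by nearly the same factor. ELF4, a small protein of the complex, went from 3395 reads (54.7 RPKM) to 5558 (86.9 RPKM), a fold of 1.59 (interval 1.5 to 1.69). LUX, its DNA-binding subunit, went from 3484 reads (25.3 RPKM) to 5512 (38.8 RPKM), a fold of 1.54 (interval 1.45 to 1.63). The intervals of PRR7, GI, ELF4 and LUX overlap, so counting error does not separate these 4 folds, while TOC1 lies below them. LUX is the one clock gene that overlaps another annotated gene, AT3G46650 on the opposite strand. That gene had 12 and 41 reads, and how strand entered the counting is not stated in the sources at hand, so a small exchange of reads between the pair cannot be judged. The LUX promoter holds a G-box and, closer to the start, an evening element in the forward direction (both in capitals).
LUX promoter, chr3:17182742-17183041, forward strand: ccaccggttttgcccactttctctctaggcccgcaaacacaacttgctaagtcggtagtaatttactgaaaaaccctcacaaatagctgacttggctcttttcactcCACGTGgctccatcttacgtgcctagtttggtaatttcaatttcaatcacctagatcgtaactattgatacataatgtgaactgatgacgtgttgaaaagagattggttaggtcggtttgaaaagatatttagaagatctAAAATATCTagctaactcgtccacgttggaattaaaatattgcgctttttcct

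**Figure D3:**
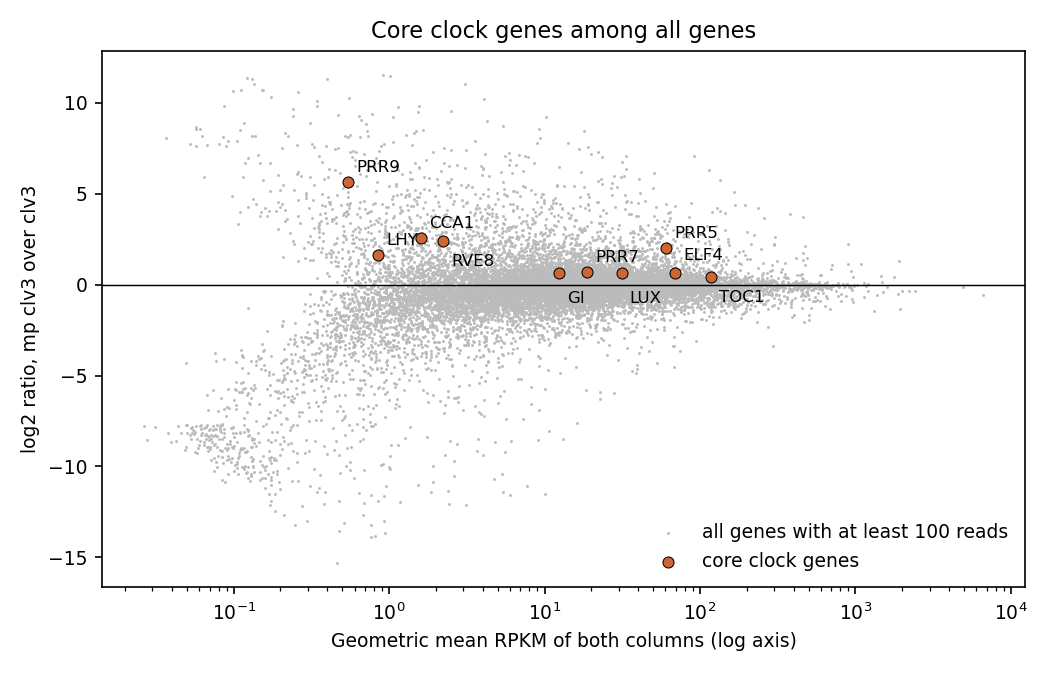
Log2 ratio of mp clv3 over clv3 against the geometric mean RPKM of both columns (log axis) for genes with at least 100 reads in the higher genotype, with a count of 0 drawn at 0.5 reads. Each grey point is a gene, the clock genes are named, all 10 lie above 0, and TOC1, the lowest, is at percentile 81.5 of the ratios.

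Grouped by motif, the clock genes did not form groups of like size. The 3 with an evening element were 1.35-fold (TOC1), 1.54-fold (LUX) and 4.05-fold (PRR5) higher. The 5 with a G-box ran from 1.54-fold (LUX) to 50.3-fold (PRR9).

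Levels relative to TOC1 within a genotype do not change when a column is multiplied by a factor, as in scaling to totals, by TMM or by a median, though quantile normalization can change them. All 9 other clock genes took a larger share of the TOC1 level in mp clv3. In clv3, CCA1 stood at 0.655% of the RPKM of TOC1 and in mp clv3 at 2.85%. RVE8 stood at 0.948% and 3.76%, LHY at 0.477% and 1.09%, and PRR9 at 0.0758% and 2.82%. PRR5 moved from 29.6% to 88.4%, close to the TOC1 level itself. GI, LUX, ELF4 and PRR7 changed against TOC1 by factors of only 1.13 to 1.19. GI, LUX, ELF4 and PRR7 thus kept nearly fixed proportions to each other and were each slightly higher against TOC1. PRR5 and the 4 scarce genes shifted further.

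**Figure D4:**
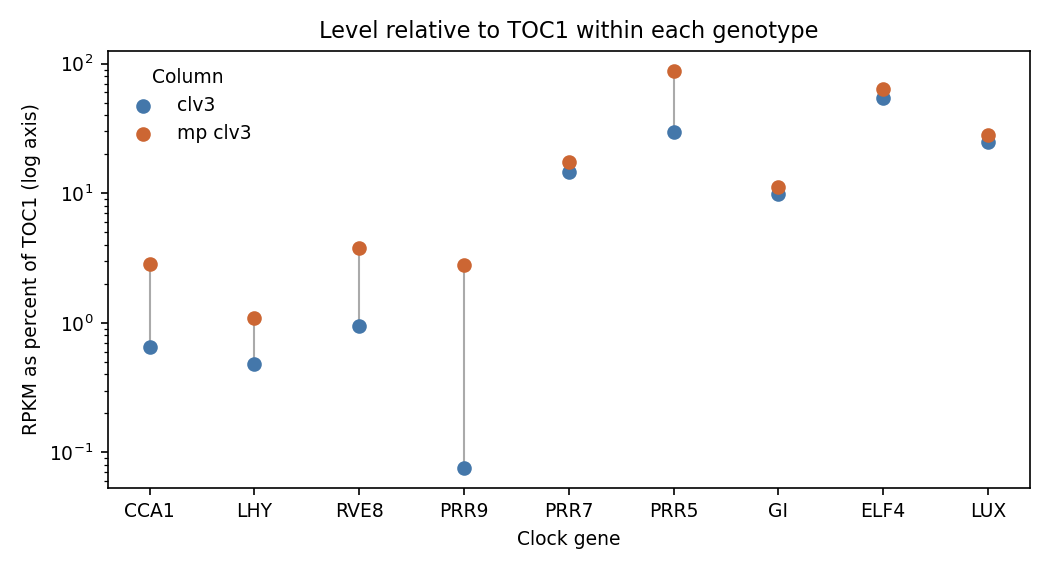
RPKM of each clock gene as a percentage of that of TOC1 in the same column, on a log axis, with 1 point per genotype joined by a line. The lines are long for CCA1, LHY, RVE8, PRR9 and PRR5 and short for PRR7, GI, ELF4 and LUX. Each mp clv3 point is the upper one because TOC1 differed the least.

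Setting the columns to each other in 3 other ways raised all ratios. Scaling by TMM moved the median log2 ratio of well-covered genes (mean of both columns at least 100 reads) up by 0.15, the median of ratios by 0.14, and setting that median to 0 by 0.12. Quantile normalization, which shifts each gene by its own amount, left all 10 clock genes higher, with TOC1 at a log2 ratio of 0.42. Relative to that median the 10 clock genes were therefore still higher, TOC1 by 0.56 and PRR9 by 5.78 on the log2 scale.

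The wider clock genes were taken in 5 lists. The other REVEILLE and LNK genes resembled the core. The authors' deposited table calls 10 of 11 higher and 1 lower, against 26.4% and 46.3% of all genes. Their median log2 ratio was 1.0, against -0.20 for all genes. LNK proteins are partners of RVE8 on evening promoters. LNK3 had 147 and 1916 reads, 12.7-fold higher (interval 9.91 to 16.1), and LNK4 had 69 and 632 reads, 8.89-fold higher. LNK1 was 3.58-fold higher (2.01 and 7.19 RPKM). RVE3 (listed as ASG4 in the reference), a MYB-like member of the REVEILLE family, had 38 and 106 reads, 2.71-fold higher (interval 1.58 to 4.84). The lower one was RVE4 (listed as LCL1 in the reference), a near relative of RVE8 with 33.7 and 32.2 RPKM, whose log2 ratio of -0.07 turned to 0.08 with TMM scaling and to 0.05 with the median set to 0. RVE8 and RVE4 thus stood apart, at 5.36-fold and 0.954-fold, and the counting interval of RVE4 (0.901 to 1.01) includes equality.

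**Figure D5:**
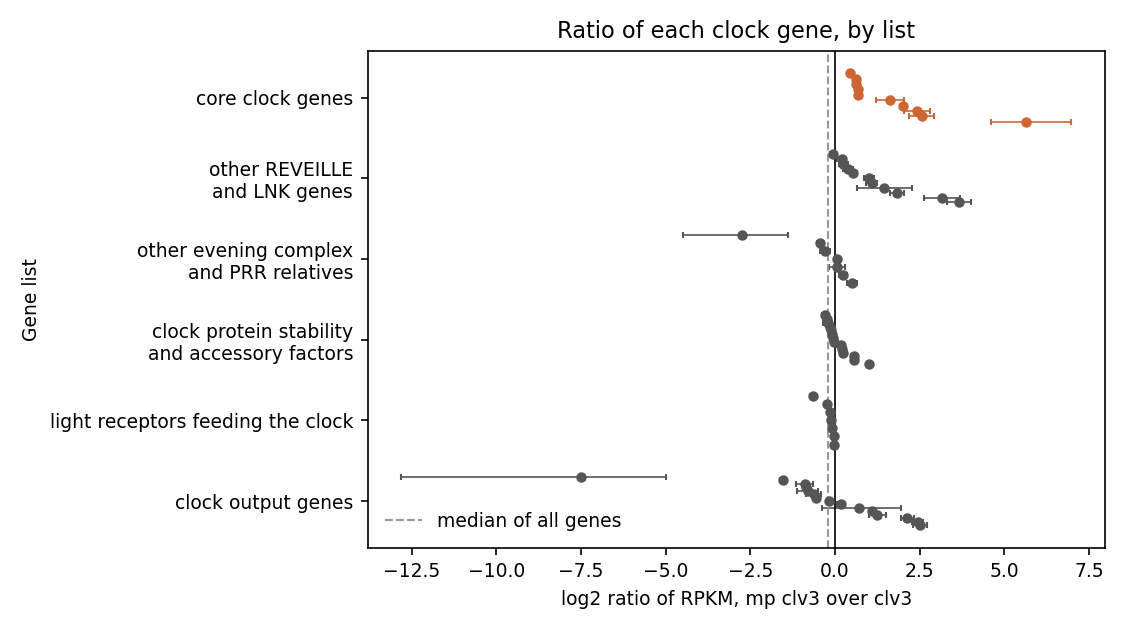
Log2 ratio of mp clv3 over clv3 for every gene of the 6 clock lists, 1 point per gene with its 95% counting interval, core genes in orange, and the median of all genes (-0.20) as a dashed line. The core genes and nearly all REVEILLE and LNK genes lie to the right of 0, the light receptors lie within 0.65 of it, and FT lies furthest to the left at -7.50.

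Of the 7 relatives of the evening complex and PRR genes, the authors' deposited table calls 3 higher and 3 lower, against 26.4% and 46.3% of all genes, and the median log2 ratio was 0.05. ELF4-L1, a homolog of ELF4 with few reads (65 and 10), was the one member past 2-fold, at 6.70-fold lower (interval 2.64 to 22.3). Over all genes, 18.5% were at least 2-fold lower and 9.33% at least 2-fold higher. ELF4-L2, another homolog, was 1.41-fold higher and NOX, the close homolog of LUX (BOA in the reference), 1.18-fold higher. PRR3, which protects TOC1 from degradation, was 1.36-fold lower (22.4 and 16.5 RPKM), and ELF4-L4 was 1.22-fold lower. ELF3, the scaffold of the evening complex, was among the 3 called higher. It had 44.1 and 45.7 RPKM, a fold of 1.03, and its counting interval (0.998 to 1.07) includes equality. The complex's 3 subunits were therefore not alike, with ELF4 at 1.59-fold, LUX at 1.54-fold and ELF3 close to equal.

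Of 14 factors that act on clock protein stability or beside the core, the authors' deposited table calls 6 higher and 7 lower, where 26.4% and 46.3% of all genes were so called. The median log2 ratio was -0.03. At least 2-fold higher was 1 of the 14, against 9.33% of all genes, and none was 2-fold lower, against 18.5%. AT4G33980, noted in the reference as the best match of COR27, was 2.01-fold higher (interval 1.91 to 2.12), while COR27 itself had 181 and 169 RPKM. LKP2, of the ZTL family of light-sensing F-box proteins, was 1.49-fold higher, and CHE, a repressor of CCA1 listed as TCP11 in the reference, was 1.46-fold higher. PRMT5 (SKB1 in the reference), an arginine methyltransferase, was 1.24-fold lower. ZTL, which targets TOC1 and PRR5 for degradation, had 26.5 and 30.3 RPKM, 1.15-fold higher. FKF1, one of the 7 called lower, had a fold of 0.967, and its counting interval (0.928 to 1.01) includes equality. With the median set to 0 the split of the 14 became 8 higher and 5 lower.

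The photoreceptors that set the clock differed little. The authors' deposited table calls 5 of 7 lower and none higher, against 46.3% and 26.4% of all genes, and their median log2 ratio was -0.12, but with the median of genes set to 0 the split was 2 higher and 3 lower, and with TMM scaling 3 higher and 2 lower. PHYC had 17.9 and 11.4 RPKM, 1.57-fold lower (interval 1.48 to 1.65), and PHYA was 1.17-fold lower. These 2 kept their direction under every scaling tried. The blue light receptors CRY1 and CRY2 were 1.10-fold and 1.08-fold lower, and both turned to higher with TMM scaling.

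Of 15 genes that the clock is known to drive, the authors' deposited table calls 6 higher and 8 lower, against 26.4% and 46.3% of all genes. Their median log2 ratio was -0.19, near that of all genes (-0.20). At least 2-fold higher were 5 of the 15, against 9.33% of all genes, and 2 were at least 2-fold lower, against 18.5%. The list has no common direction, so its members are described singly. CDF2, a DOF-type repressor of CO, was 5.43-fold higher (3.61 and 19.6 RPKM), and COL1, a CO-like gene, was 4.40-fold higher. PIF5, a bHLH factor of growth listed as PIL6 in the reference, was 5.68-fold higher (interval 4.93 to 6.56). FT, the mobile flowering signal, fell from 352 reads to 2, which is 181-fold lower (interval 32.1 to 7201). CO, the activator of FT, had 492 and 290 reads, 1.75-fold lower (interval 1.42 to 2.16). Higher GI and lower CO and FT were therefore found in the same column. CAB2, a light-harvesting gene with near-identical copies whose reads may be split uncertainly, was 2.90-fold lower beside the 7 of 8 lower green tissue markers given above.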

How the data were processed

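Strand-specific libraries of shoot apex mRNA were sequenced in pairs of 100 bases, per the labels' protocols. The submitters' processing notes list BWA, CASAVA 1.7 and TAIR10. The read counter, its strand setting and how 2 libraries became 1 column are not given in the sources at hand. The authors deposited estimated counts (reads per gene, with 0.5 for genes without reads, read here as 0), RPKM, a log2 ratio and, for each gene, an FDR or adjusted p-value, per the file headers. Of 27323 rows, 1 (AT1G01010) has displaced cells and was left out. Small counts were mostly even (83.3% of clv3 values from 1 to 9), so reads were divided by 2 and rounded up to read pairs for intervals.

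Since no values per library were at hand, the planned test across libraries was replaced. In its place stand the authors' FDR, folds of reads scaled to column totals, and exact Clopper-Pearson intervals at 95%. With 1 column per genotype these intervals cover counting error only. PCR copies are not independent molecules, so the intervals may be too narrow even for that. An exact binomial test on read pairs (Benjamini-Hochberg adjusted) was an alternative. It was tried on simulated counts that held only counting error, as the test assumes. That trial cannot speak to spread between plants or to PCR copies. The exact test compares columns, not genotypes. Other alternatives were TMM (edgeR 4.0.16), median of ratios (DESeq2 1.42.0), median and quantile scaling, pseudocounts of 1 and 0.1 RPKM and a minimum of 100 reads. Members and lists were chosen with earlier results of these data known. Named were all 10 members and, of each other clock list, the 4 genes with the largest log2 ratio in either direction among those with at least 100 reads in the higher genotype. ELF3, ELF4-L1, RVE4, ZTL, FKF1, COR27, CO, CAB2, the marker genes, the gene that overlaps LUX and the genes of the closing section were named after their values were seen. Gene names came from RefSeq, in which 26643 identifiers were matched. Python 3.11.15 and scipy 1.17.1 were used.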

Additional observations from a re-analysis of the deposited data

How the results depend on the processing

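No paired analysis was possible because the values of both libraries of a genotype stand in 1 column, so no library could be left out either. All 60 log2 ratios of the 10 clock genes under the 6 alternatives that change a ratio stayed above 0, the lowest being 0.42 for TOC1 with quantile normalization. Pseudocounts cannot turn a direction, and 3 of the 4 scalings raised all ratios. Only quantile normalization could therefore have turned a clock gene to lower. Of the 60 values, 27 lay outside the counting interval of the gene's main ratio. All 10 were called higher and none lower under each alternative, but the other alternatives kept the authors' FDR, so apart from a turned direction or a gene under the read minimum a call could be lost in the exact test on read pairs alone. The median log2 ratio fell from 1.16 to 0.71 with a pseudocount of 1 RPKM, which by construction shrinks scarce genes. Members at least 2-fold higher then went from 5 to 4, without LHY (log2 ratio 1.63 to 0.75), and PRR9 went from 5.65 to 2.18, or to 4.49 with 0.1 RPKM. Called genes of the other lists moved with scaling. With TMM, the lower REVEILLE and LNK genes went from 1 to 0, the accessory factors from 6 higher and 7 lower to 10 and 3, and the light receptors from 0 higher and 5 lower to 3 and 2. With the median set to 0, lower REVEILLE and LNK genes were 0, and light receptors 2 higher and 3 lower. The other 22 of 30 such counts stayed within 1.5 times.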

Other observations

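Several clock-related genes differed in the opposite direction from a close relative. CAT2, a catalase gene, was 2.14-fold higher in mp clv3 (33.6 and 71.7 RPKM), while CAT3, another catalase gene, was 1.83-fold lower (1100 and 602 RPKM). COL1 was 4.40-fold higher while COL2 was 1.86-fold lower. PIF5 was 5.68-fold higher while PIF4, its relative in growth control, was 1.55-fold lower (4.80 and 3.11 RPKM). These 6 genes kept their direction under all 4 scalings tried.

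GRP7, an RNA-binding protein gene of a clock-driven feedback loop, was the most abundant transcript among the clock outputs, and its RPKM went from 8060 to 5470. It was 1.47-fold lower (interval 1.47 to 1.48), and its close homolog GRP8 (CCR1 in the reference) was 1.14-fold lower. With quantile normalization the log2 ratio of GRP7 was 0 because it ranks first in both columns.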
